A study of Macaca mulatta with 32 samples.

Results

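The occipital cortex (OC) of rhesus macaques (Macaca mulatta) was compared with the rest of the sampled neocortex for the level of circular RNAs (circRNAs). The OC group was every library whose label begins with OC, which gave 4 of the 32 libraries of the series, and the other group was the 16 libraries of 4 further areas: PFC (prefrontal), PCC (posterior cingulate), TC (temporal) and PC (parietal cortex). Hippocampal and cerebellar libraries were left out. Each region was represented by a library from each of 4 pools, and a pool was the mixed RNA of 2 healthy animals of one sex and age. The pools are named by age in years and sex, with 10F and 20F for females and 10M and 20M for males. All 20 libraries therefore came from the same 8 animals, with no treatment or genetic change in any group. OC tissue was taken at V1, the primary visual cortex, PFC at the main sulci, PCC at Brodmann's area 23, TC at the superior temporal gyrus and PC at the middle sylvian fissure. RNA was depleted of polyadenylated, ribosomal and linear RNA before sequencing, and a circRNA was measured by reads across its back-splice junction, in a unit the depositors call TPM.

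CircRNAs form when a downstream splice donor joins an upstream acceptor, so that exons close into a ring without free ends. Such rings resist exonucleases, outlast many linear transcripts and are abundant in neurons, where many come from genes of synapses and signalling. V1 is the cortical target of the visual thalamus and has a thick granular layer 4, which association areas such as PFC have in a thinner form.

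The OC libraries held 309401 (10F), 136869 (10M), 188859 (20F) and 361224 (20M) back-splice reads, within the range of the other 16, from 58037 to 894932. Summed over circRNAs, a library held 141680 to 194929 TPM in OC and 124769 to 298646 TPM elsewhere, with means of 174720 ± 23018 (SD, n = 4) and 233988 ± 45910 (n = 16, exact two-sided permutation p = 0.0235, adjusted p = 0.129 over 8 library summaries). Bringing all libraries to the same total moved the median log2 difference over the tested circRNAs from -0.004 to 0.14, so small differences below depend on this scale. The smallest value above 0 stood for 2 reads in every library, and a circRNA with fewer reads is listed at 0. Zeros were not confined to low levels. CircMAP7 was listed at 0 in TC_10M and circCACNA1A in PC_20M, against means of 1481 and 844 TPM outside OC. The cause of such zeros was not tested. In the study's own summary of reads, 3 libraries stood apart by their share of clean reads, PFC_20F, PCC_20F and PC_10M, none of them from OC.

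Each OC library was more like every other OC library than like any library of another area. Over the 9681 circRNAs tested, the Spearman correlation was 0.41 to 0.45 among the 6 pairs of OC libraries and 0.31 to 0.42 (median 0.37) over the 64 pairs of an OC library with another. For each of the 4 OC libraries the 3 closest of the 19 others were the 3 other OC libraries, so that 12 of 12 such neighbours were from the own region. The same count was 6 for PFC, 3 for TC, 1 for PCC and 1 for PC. With every library drawn down to 58037 reads it was again 12 for OC, and 5, 3, 1 and 4 for PFC, TC, PCC and PC. These are descriptions over circRNAs that share a library and its depth, and the sources used here give no date of library preparation. In the study's summary of reads, the clean shares of the 4 OC libraries lay closer together than those of any other area. The part of such technical likeness was not tested.

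**Figure D1:**
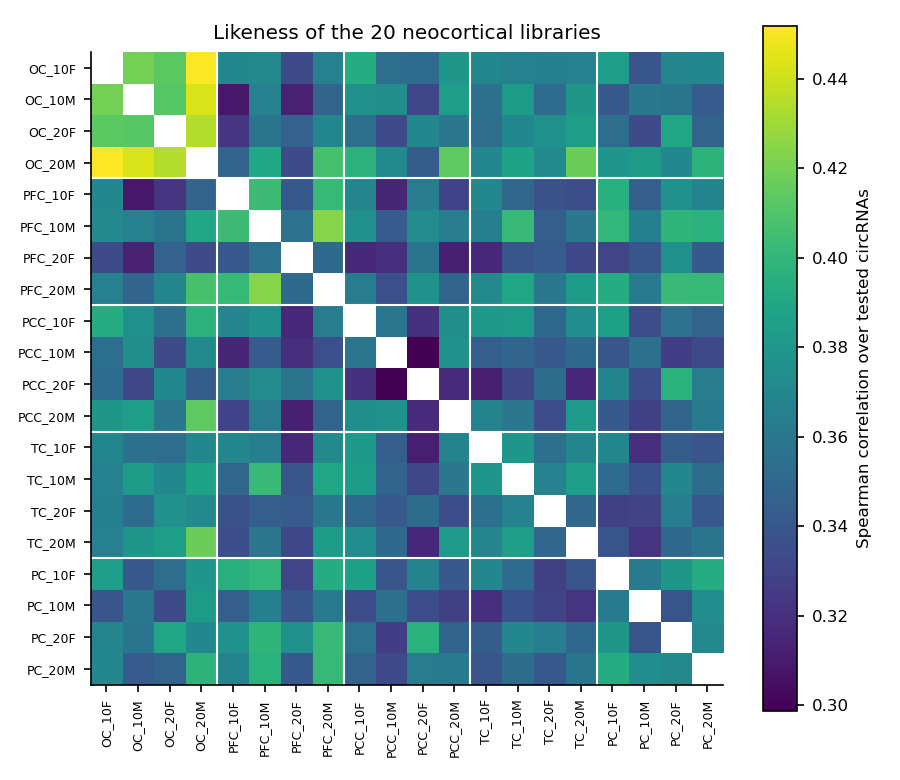
Spearman correlation of TPM over the 9681 tested circRNAs for each pair of the 20 neocortical libraries, with white lines between regions and the diagonal left blank. The 6 pairs of OC libraries, top left, lie at 0.41 to 0.45.

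Levels also varied less among the OC pools. For the 193 circRNAs found in all 20 libraries, the coefficient of variation over the 4 pools had a median of 31.995% in OC, 34.5% in PC, 45.7% in TC, 49.6% in PCC and 57.3% in PFC. OC had the smallest coefficient for 75 of the 193 (38.9%) and the largest for 5. With libraries brought to the same total the OC median was 28.6%, against 33.4% in PC and 41.0% in PFC, and OC had the smallest for 61. PFC, PCC and PC each hold 1 of the 3 libraries that stood apart by clean reads, and its part in their spread was not tested. The libraries with the fewest back-splice reads were in TC and PCC, with 58037 in TC_10M, 78611 in PCC_20M and 80314 in PCC_10M. The lowest OC library, OC_10M, held 136869. Fewer reads add counting noise to the spread, and the part of depth was not tested either.

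The number of circRNAs did not differ beyond the spread among libraries. OC libraries held 6013 to 10927 circRNAs (mean 8481 ± 2053) and the others 3563 to 10052 (mean 6374 ± 1951, exact permutation p = 0.0722, adjusted p = 0.178). At 58037 reads each, the means were 7121 ± 1156 and 5772 ± 1498 (exact permutation p = 0.113, adjusted p = 0.181). Of OC back-splice reads, 76.6% ± 0.729 fell in exonic, 7.64% ± 0.572 in intronic and 15.8% ± 0.563 in intergenic circRNAs, against 76.3% ± 0.751, 6.92% ± 0.753 and 16.8% ± 0.792 elsewhere. The intergenic share was the lowest of these by exact permutation p (0.0322, adjusted p = 0.129), and none of the 8 summaries passed after adjustment. The read-weighted median genomic span was 3835 ± 536 bases in OC and 4481 ± 805 bases elsewhere (exact permutation p = 0.150, adjusted p = 0.200). Of the 20321 circRNAs found in any OC library, 12798 (62.98%) were in a single OC library. Of the same 20321, 6911 were in OC and in no other neocortical library, but 6462 of these (93.5%) came from 1 OC library, 53 from at least 3 and 3 from all 4. No circRNA was present in all 16 other libraries and absent from OC.

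The most abundant circRNAs of OC were largely those of the other areas. Of the 10 with the highest mean TPM in OC, 8 were also in the first 10 elsewhere, and of the first 100, 81. CircWDR41, from a gene whose protein is part of the C9ORF72 complex of autophagy, came first with a mean of 3147 ± 117 TPM, and stood eighth elsewhere. An intergenic circRNA of chromosome 14 (127298190 to 127302852) followed with 2008 ± 126 TPM in OC and 1923 ± 923 TPM elsewhere, and circMAP7, from a microtubule-associated protein, with 1687 ± 298 and 1481 ± 873 TPM. CircSMARCA5, from a chromatin remodeller, ranged widely within OC, from 456 (20F) to 2284 TPM (10M). CircCACNA1A, from the pore subunit of P/Q-type calcium channels, had 1185 ± 209 TPM in OC and 844 ± 584 TPM elsewhere, places 10 and 22 in the order of means. These 10 were chosen after their values were seen.

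CircGDAP1L1 (chromosome 10, 20186521 to 20187867, an exonic circRNA of a paralogue of the mitochondrial gene GDAP1) was the circRNA with the highest mean outside OC. It had 2001 (10F), 1264 (10M), 1274 (20F) and 2126 TPM (20M) in OC, and 2611 to 5979 TPM (median 4100) in the 16 other libraries. Every OC library was thus below every other library, in each of the 4 regions. The means were 1666 ± 462 and 4106 ± 1079 TPM, and the exact permutation p was 0.000206, the smallest that 4845 choices of 4 libraries can give. By limma on log2(TPM + 1.775) the difference was -1.29 ± 0.52 (SE), with an adjusted p of 0.83, and of 0.030 where limma's prior variance followed the mean level. With libraries brought to the same total the groups overlapped, with 1578 to 2429 TPM in OC and 2161 to 5630 TPM elsewhere, and the difference was -0.89.

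The main comparison asked which circRNAs differ between OC and the 16 other libraries beyond the spread among libraries. By limma, 5 of 9681 circRNAs were higher in OC (0.0516%) and 1 was lower (0.0103%) at an adjusted p under 0.05. The median standard error of a log2 difference was 0.80, so a change had to be large to pass. At an unadjusted p under 0.05, 339 were higher (3.5%) and 153 lower (1.58%). Together they were 5.08% of those tested, about the share that a p under 0.05 gives with no difference. The same contrast for each other region against the remaining neocortex gave 1 higher and 1 lower for PFC, 1 and 5 for PCC, 1 and 1 for TC, and 4 and 0 for PC. In bulk tissue, fewer cells of a type and less of an RNA per cell cannot be told apart.

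**Figure D2:**
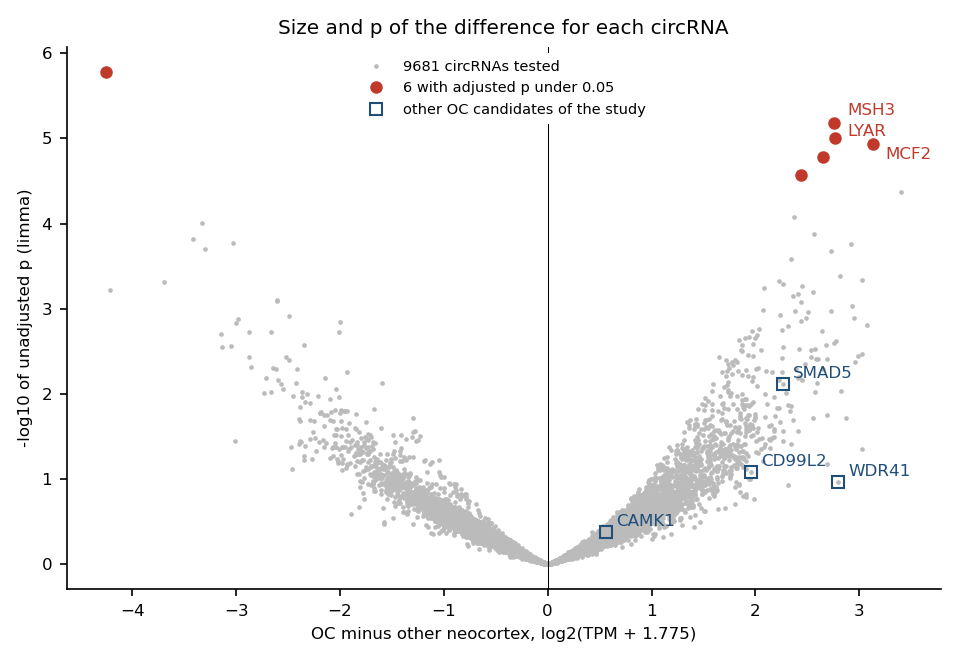
Difference between OC and other neocortex on the log2(TPM + 1.775) scale (x axis) against -log10 of the unadjusted limma p (y axis) for the 9681 circRNAs. Red points are the 5 higher and 1 lower circRNAs with an adjusted p under 0.05, and blue squares the 4 OC candidates of the study that did not pass.

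CircMSH3 (chromosome 6, 76971819 to 76977383, plus strand, exonic) comes from a mismatch repair gene. It had 17.2 (10F), 9.32 (10M), 13.3 (20F) and 4.86 TPM (20M) in OC, from 61 reads, and was listed at 0 in all 16 other libraries. At the OC mean of 11.2 TPM those 16 would hold 207 reads together by depth alone. Abundant circRNAs were also listed at 0 in some libraries, so this count is no test of absence. The log2 difference was 2.76 ± 0.51 (limma adjusted p = 0.028, exact permutation p = 0.000206). It could be tested only because it was above 0 in all 4 OC libraries, which these p-values do not take into account. Of the 4 circRNAs of MSH3 that were tested, 2 had a difference above 0 and 2 below, and this was the 1 that passed.

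CircLYAR (chromosome 5, 4496067 to 4498519, plus strand, exonic), from a gene for a nucleolar zinc finger protein, had 10.1, 17.6, 9.49 and 9.17 TPM in OC in the order 10F, 10M, 20F and 20M. Among the other 16 it was found in PFC_20M alone, at 3.53 TPM. The groups did not overlap, and the log2 difference was 2.77 ± 0.52 (limma adjusted p = 0.028). Above 0 in 1 other library, circLYAR reached the 4 libraries needed for testing only through OC. The p-value does not take this into account. It was the only circRNA of LYAR in the table.

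CircMCF2 (chromosome X, 137768657 to 137769056, minus strand, classed as intronic) comes from the gene of a guanine nucleotide exchange factor, first known as the DBL proto-oncogene. Its OC values were 20.1, 26.9, 15.2 and 12.95 TPM, from 100 reads. Elsewhere it was above 0 in 3 of 16 libraries, PCC_10F with 11.25 TPM, PC_10F with 3.89 TPM and PFC_20M with 2.02 TPM. Every OC library was above the highest of these, and the log2 difference was 3.13 ± 0.60 (limma adjusted p = 0.028, exact permutation p = 0.000206). With 3 others above 0, circMCF2 too reached the 4 libraries needed for testing only through OC. These p-values do not take this into account. The study had itself picked this circRNA as an OC candidate from these libraries, so its direction here is not independent evidence.

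The other circRNAs that were higher are intergenic in the table's annotation. That of chromosome 9 (101461551 to 101461691, minus strand) spans 141 bases and had 10.1, 23.8, 6.64 and 4.32 TPM in OC. That of chromosome 15 (39640148 to 39649914, minus strand) had 7.10, 8.28, 7.59 and 8.63 TPM, a mean of 7.90 ± 0.69. Both were listed at 0 in the other 16 libraries, with log2 differences of 2.65 ± 0.52 (adjusted p = 0.032 by limma) and 2.44 ± 0.49 (adjusted p = 0.043 by limma). CircMSH3 and these were the 3 tested circRNAs listed at 0 in all 16 others, and they passed the filter for testing through the OC libraries alone, so their p-values, and their share of the 5 calls, are to be read as a description. The 2 reads needed for a value were worth less than 4.86 TPM, the lowest OC value of circMSH3, in 13 of the 16, so a level like that could not have been listed in the remaining 3.

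The circRNA that was lower is also intergenic (chromosome 16, 43728882 to 43729864, minus strand). It had 11.8 TPM in 10F and 34.5 TPM in 20M and was listed at 0 in 10M and 20F. In the 16 other libraries it had 28.3 to 367 TPM (median 123), and its regional means were 161 in PFC, 117 in PCC, 198 in TC and 79.6 TPM in PC. The highest OC value lay above the lowest other value, that of PC_20F. The log2 difference was -4.25 ± 0.71 (limma adjusted p = 0.016), and the exact permutation p on TPM was 0.0122.

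**Figure D3:**
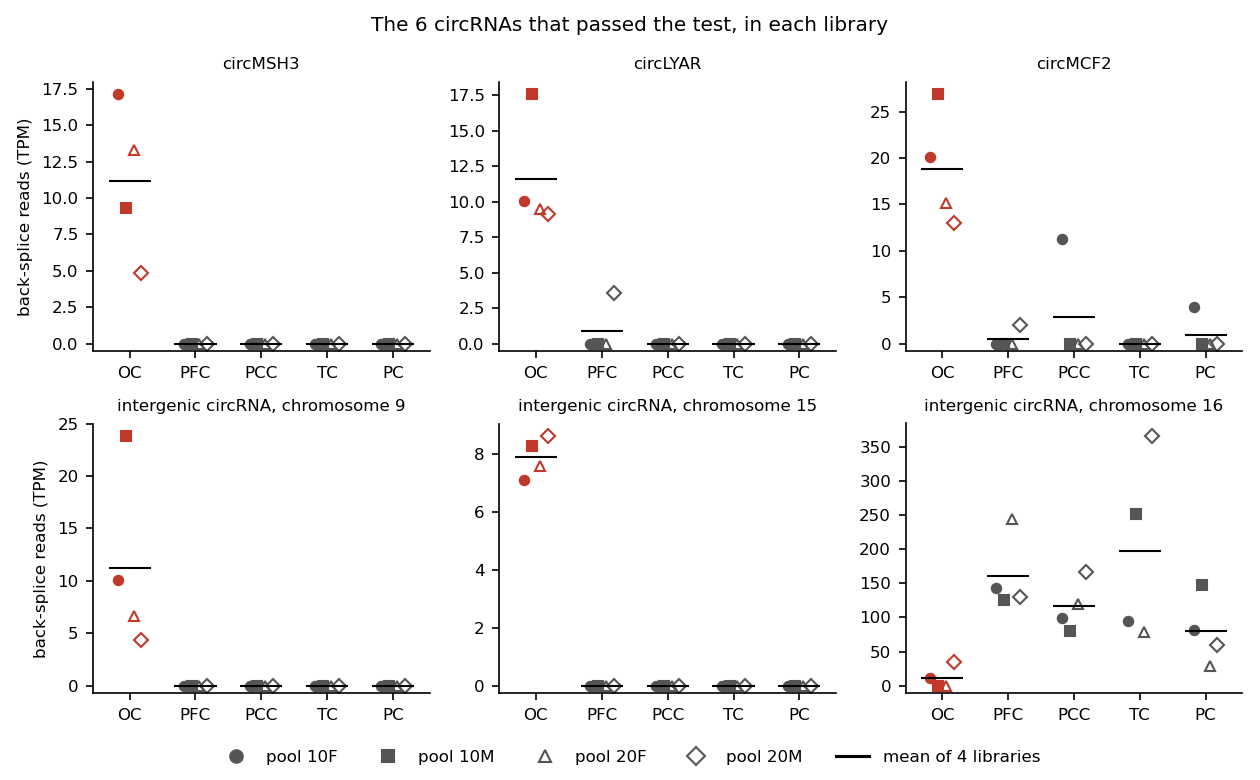
Back-splice reads in TPM (y axis) of the 6 circRNAs that passed the test, for the 4 libraries of each region (x axis), with a symbol for each pool and a line at the mean. In the 5 panels of higher circRNAs the OC points lie above every other point, and in the chromosome 16 panel they lie at 0 to 34.5 TPM.

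With the animal pool as a block, 2 circRNAs were higher and 1 lower: circMSH3 and circMCF2 (adjusted p = 0.049 for both, limma) and the chromosome 16 circRNA (adjusted p = 0.021) passed, while circLYAR (0.052) and the chromosome 9 (0.063) and chromosome 15 (0.091) circRNAs did not. Leaving out an OC library takes circMSH3 and the chromosome 9 and 15 circRNAs out of the test, since they are then above 0 in too few libraries, so nothing can be read from their loss. CircLYAR and circMCF2 were still tested, with log2 differences of 2.58 to 2.85 and 2.96 to 3.28, and limma adjusted p from 0.15 to 0.28 with the fewer libraries. The circRNA that was lower was lost without OC_10M (adjusted p = 0.17) or OC_20F (0.15). Without PFC_20F, PCC_20F and PC_10M, 1 circRNA was higher and 1 lower. CircMSH3, circLYAR and circMCF2 did not pass there (limma adjusted p = 0.11 for each). A filter of at least 10 libraries above 0 excludes all 5 higher circRNAs from the test, and under it the chromosome 16 circRNA was again lower.

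By the exact permutation test on TPM at p under 0.01 without adjustment, 88 circRNAs were higher in OC (0.909%) and 15 lower (0.155%). With no difference anywhere, a share of about 0.01 of those tested would be expected, which is close to these together. The traits of the 88 and 15 given below are therefore a description only. The same test gave 60 and 7 for PFC, 106 and 3 for PCC, 182 and 4 for TC, and 190 and 1 for PC. The 88 were low in level, with a median of 8.385 TPM in OC and 0.815 TPM elsewhere, and 49 of them were above 0 in every OC library. The 15 were high, with medians of 65.3 and 216 TPM, and 14 were lower in each of the 4 pools. By class, 61 of the 88 (69.3%) were exonic and 21 (23.9%) intergenic, beside 76.3% and 16.5% of all circRNAs tested. With libraries brought to the same total 188 were higher and 10 lower, and without any 1 OC library 53 to 71 were higher and 3 to 9 lower. With a filter of at least 10 libraries above 0, 13 were higher and 15 lower.

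Complete separation of the 4 OC libraries was seen in 9 circRNAs above all other libraries (0.093%) and 4 below (0.0413%), 13 that were picked by this property of their values. Beside the 5 already described, those above were circMARK3, circZNF532 and intergenic circRNAs of chromosomes 14 (30682305 to 30778478) and 3 (50109609 to 50110317). CircMARK3 (chromosome 7, 166795319 to 166800658), from a kinase of microtubule-associated proteins, was the highest of them with 80.5, 82.8, 101 and 73.4 TPM in OC. In the other libraries it reached 69.6 TPM (TC_20M) and was above 0 in 11. Its log2 difference was 2.96 ± 0.95 with a limma adjusted p of 0.45, and 5 of 7 tested circRNAs of MARK3 had a difference above 0.

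Those below were circGDAP1L1, circPRSS12, circNEDD4L and an intergenic circRNA of chromosome 5 (151355491 to 151379031). CircPRSS12 (chromosome 5, 111177622 to 111184194) comes from the gene of neurotrypsin, a synaptic serine protease, and had 21.9, 23.8, 25.6 and 18.4 TPM in OC against 32.2 to 222 TPM (median 104) elsewhere. CircNEDD4L (chromosome 18, 51428655 to 51512097), from a ubiquitin ligase of ion channels, had 27.2, 34.2, 62.6 and 92.8 TPM against 94.2 to 417 TPM (median 188). The limma adjusted p was 0.35 for circPRSS12 and 0.33 for circNEDD4L. With libraries brought to the same total, 8 of the 9 stayed above and 1 of the 4, circPRSS12, stayed below. With every library drawn down to 58037 reads, 4 of the 9 stayed above, circMSH3, circLYAR, circMCF2 and the chromosome 9 circRNA, and all 4 stayed below.

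CircRNAs with the next smallest p-values did not pass the test. On the higher side these were intergenic circRNAs of chromosomes 16 (55775206 to 55777140), 14 and 4 (93774993 to 93943925). That of chromosome 16 had 33.1, 9.32, 55.0 and 28.6 TPM in OC and reached 25.95 TPM in TC_20F, with a log2 difference of 3.40 ± 0.71 and a limma adjusted p of 0.059. On the lower side they were circRNAs of SYNE1, TMTC2, TMOD2, DPYD, RAPGEF5 and DGKI and an intergenic circRNA of chromosome 10 (4646317 to 4683182), with limma adjusted p from 0.11 to 0.27.

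CircSYNE1 (chromosome 4, 110772159 to 110773689), from the gene of the nuclear envelope protein nesprin-1, had 11.2, 7.25, 0 and 12.95 TPM in OC and 6.56 to 231 TPM (median 91.2) elsewhere. CircTMOD2 (chromosome 7, 30077696 to 30079512), from a neuronal protein that caps actin filaments, had 33.7, 29.0, 0 and 0 TPM against 24.6 to 139 TPM (median 60.9). For each of these genes other circRNAs pointed both ways: 2 of 5 tested circRNAs of SYNE1 and 3 of 6 of TMOD2 had differences above 0. CircDPYD (chromosome 1, 100724539 to 100744428), from the enzyme that starts pyrimidine breakdown, had 0, 0, 8.54 and 4.32 TPM in OC and a median of 38.9 TPM elsewhere, and all 7 tested circRNAs of DPYD had differences below 0. CircRAPGEF5 (chromosome 3, 103874709 to 103927555), from a Rap exchange factor, was listed at 0 in 3 OC libraries and at 56.7 TPM in OC_20M, against 0 to 345 TPM (median 131) elsewhere, where TC_20F and TC_20M were also at 0.

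The study listed 5 circRNAs as OC candidates and designed a primer pair for each, to amplify across the junction. Its own comparison set OC against all other sampled areas, hippocampus and cerebellum among them, and not against the neocortex alone. It also reported higher levels in OC by RT-qPCR for circMCF2, circCD99L2, circSMAD5 and circCAMK1, a measure that was not available here. The pairs are shown forward and then reverse. The values below were matched to each candidate by the position that the study lists with its pair, not by the primer sequences.
circWDR41: gcctctgctgatagaacagtt
circWDR41: tttgagtgtgtccattcagttc
circCAMK1: ataagaatatccaccagtcggt
circCAMK1: ggtccttctccatcaagtgc
circMCF2: agcaactatttctaccctactt
circMCF2: ccattcctcaggttcttcaga
circSMAD5: gtttgtatcaacccataccact
circSMAD5: tcctaagcggaagttccaatt
circCD99L2: agtggatttgacttggctgatg
circCD99L2: gtggtggtggtggtgtgat

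Of these, circMCF2 passed against the other neocortex in the main comparison and the other 4 did not. CircWDR41 (chromosome 6, 73699671 to 73701378) had 3023, 3072, 3236 and 3257 TPM in OC, a coefficient of variation of 3.71%. Elsewhere it differed by area, with means of 853 ± 506 TPM in PFC, 1545 ± 327 TPM in PC and 3245 ± 792 TPM in TC, and in PCC 3026 TPM in 10M and 0 in 10F, 20F and 20M. Each OC value lay above all of PFC and PC and within the range of TC. The log2 difference was 2.80 ± 1.68 (limma adjusted p = 0.99, exact permutation p = 0.0338). Where limma's prior variance followed the mean level, the adjusted p of circWDR41 was 0.00029. That was the only 1 of 27 alternatives in which it passed.

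CircCAMK1 (chromosome 2, 51237166 to 51237428), from a calcium and calmodulin dependent kinase, was similarly even in OC, with 240, 256, 261 and 233 TPM. The other libraries ran from 38.3 to 565 TPM (median 205), and TC had a higher mean than OC, 368 ± 148 TPM. The log2 difference was 0.56 ± 0.68 (limma adjusted p = 0.99). CircSMAD5 (chromosome 6, 132617344 to 132617915), from a transducer of bone morphogenetic protein signals, had 8.87, 24.8, 21.8 and 16.7 TPM in OC and was above 0 in 7 of 16 others, with up to 26.5 TPM in PCC_10M (difference 2.27 ± 0.79, limma adjusted p = 0.56). CircCD99L2 (chromosome X, 148901873 to 148903089), from a cell surface protein of leukocyte and endothelial contacts, had 93.5, 143, 61.7 and 122 TPM in OC and 0 to 157 TPM (median 44.5) elsewhere (difference 1.96 ± 1.09, limma adjusted p = 0.99).

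**Figure D4:**
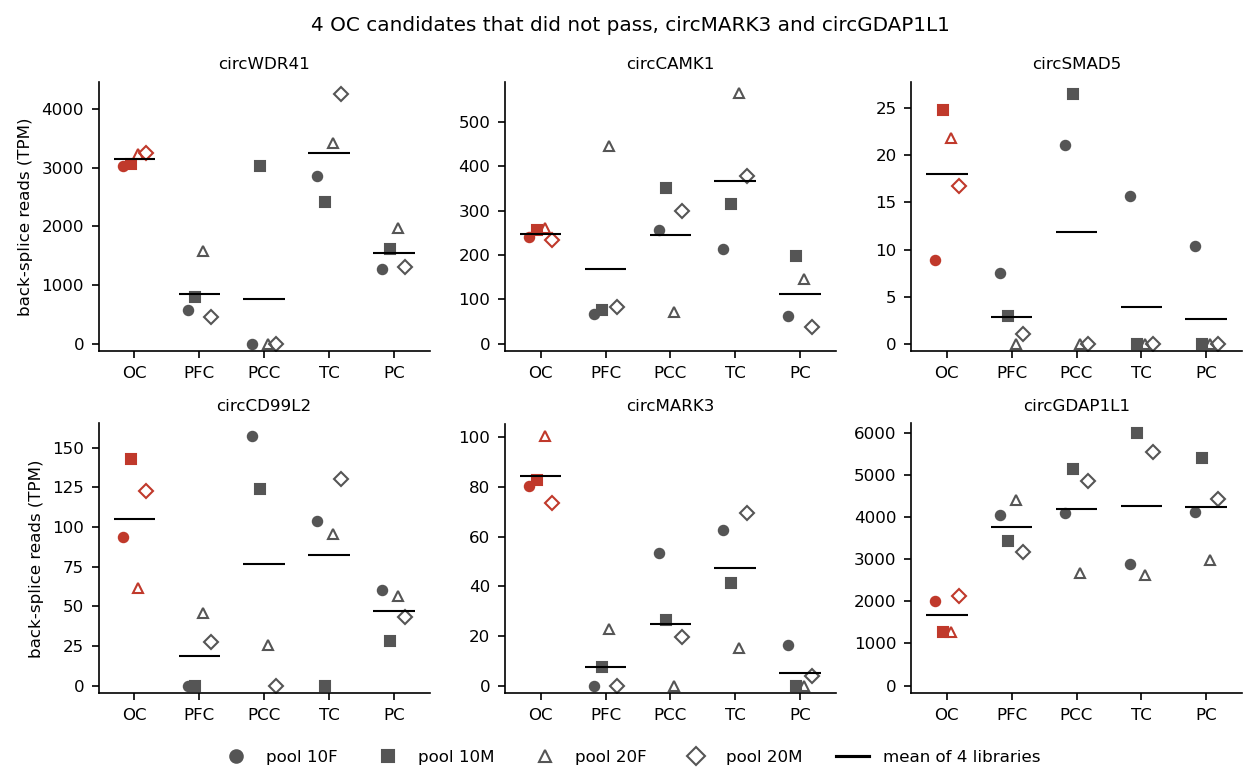
Back-splice reads in TPM (y axis) of circWDR41, circCAMK1, circSMAD5, circCD99L2, circMARK3 and circGDAP1L1 for the 4 libraries of each region (x axis), with a symbol for each pool and a line at the mean. The OC points overlap those of TC or PCC for the first 4, lie above all others for circMARK3 and below all others for circGDAP1L1.

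Levels were also summed over the tested circRNAs of each host gene, for 3616 genes. By limma 2 host genes were higher in OC (0.0553%), LYAR (adjusted p = 0.011) and MCF2 (adjusted p = 0.013), each with a single tested circRNA, and 0 were lower, while 90 (2.49%) and 91 (2.52%) had an unadjusted p under 0.05. These 2 sums are the values of circLYAR and circMCF2 again, so they add no evidence beyond those circRNAs and share their limit from the filter. With the pool as a block both host genes stayed (limma adjusted p = 0.018). Without OC_10F, OC_10M or OC_20M neither was called, while the log2 differences stayed at 2.58 to 2.85 for LYAR and 2.96 to 3.28 for MCF2.

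The host genes next in order did not pass. Thyroid hormone receptor beta, THRB, summed to 133, 22.8, 136 and 116 TPM in OC and 219 to 609 TPM (median 345) elsewhere, so that all OC libraries lay below all others. Of its 9 tested circRNAs 7 had differences below 0, and 5 had an unadjusted p under 0.05, none past adjustment. The sum gave a log2 difference of -2.01 ± 0.52 (limma adjusted p = 0.38). C6ORF142, whose protein binds lamin, summed to 1355, 386, 952 and 845 TPM against 796 to 5907 TPM (median 3481), with 9 of 10 circRNAs below 0 in difference and a limma adjusted p of 0.48. PRSS12, LRP11, DPYD, ZNF804B, EMC2 and the ubiquitin-conjugating enzyme UBE2D4 completed the lower side, with limma adjusted p from 0.38 to 0.49. On the higher side were SVIL, DGKE, CPNE3, NUBPL, UBE2G2 and GBAS, which summed to means of 6.90 to 23.1 TPM in OC and 0.378 to 3.35 TPM elsewhere, with limma adjusted p from 0.38 to 0.47. SVIL encodes the actin-binding protein supervillin, and NUBPL an assembly factor of mitochondrial complex I.

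Gene lists of cortical areas, layers, synapses and channels were then read against all 3616 host genes, whose median log2 difference was -0.05. Of the primary visual cortex and layer 4 list, circRNAs of 7 of 11 genes were in the table and 6 host genes were tested. None was called in either direction at adjusted or unadjusted p, and their median difference was 0.10. CUX1, an upper-layer transcription factor, summed to 28.98 to 133.3 TPM in OC and 0 to 139 TPM elsewhere. No circRNA of FSTL1, HTR1B, HTR2A or SCNN1A was in the table, so these circRNA values give little to check the V1 label with. The association and frontal cortex list had circRNAs of 5 of 9 genes in the table and no tested host gene. Of 4 tested genes of deep cortical layers none was called (median -0.33). The transcription factor SOX5 summed to 47.5 to 93.5 TPM in OC and 20.6 to 376 TPM elsewhere.

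Among receptors and channels no host gene was called in the main comparison. The medians were 0.06 for 13 glutamate receptor genes, -0.02 for 7 genes of the GABA system, -0.32 for 8 calcium channel genes and -0.23 for 10 sodium and potassium channel genes. No host gene of these 4 lists had an unadjusted p under 0.05. CACNA1A summed to 1148 to 1614 TPM in OC and to 179 to 1858 TPM elsewhere over 8 circRNAs (difference 0.67 ± 0.60, limma adjusted p = 1.00). By limma's voom on back-splice reads recovered from the TPM, CACNA1A was higher in OC (adjusted p = 5.2e-05), its only pass among 27 alternatives. The metabotropic glutamate receptor GRM5 summed to 41.8 to 119 TPM in OC and 66.1 to 342 TPM elsewhere, and the auxiliary calcium channel subunit CACNB2 to 6.21 to 21.8 and 0 to 164 TPM.

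Of 8 genes of the calcium and calmodulin dependent kinase list (median 0.62) and 9 BMP and TGF-beta genes (median 0.22) none was called. The kinase list includes CAMKMT, which is not itself a kinase. CAMKK2, the kinase that activates CAMK1, summed to 9.32 to 30.4 TPM in OC and 0 to 50.2 TPM elsewhere.

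Of 19 axon guidance genes none was called and the median was -0.31. Summed over the list, levels were 121 to 392.2 TPM in OC and 391 to 1143 TPM elsewhere. The mean of ROBO2, a receptor for Slit repellents, was 157 TPM in OC and 495 TPM elsewhere, with 229, 89.0, 186 and 123 TPM in OC and 212 to 870 TPM (median 498) elsewhere. Its log2 difference was -1.64 ± 0.51 (limma adjusted p = 0.55, exact permutation p = 0.00165). Of 21 genes of presynaptic release none was called (median -0.52). STXBP5, the SNARE regulator tomosyn, summed to 14.8 to 38.3 TPM in OC and 0 to 32.3 TPM elsewhere, and the active zone scaffold PPFIA2 to 3.80 to 42.1 and 0 to 146 TPM.

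**Figure D5:**
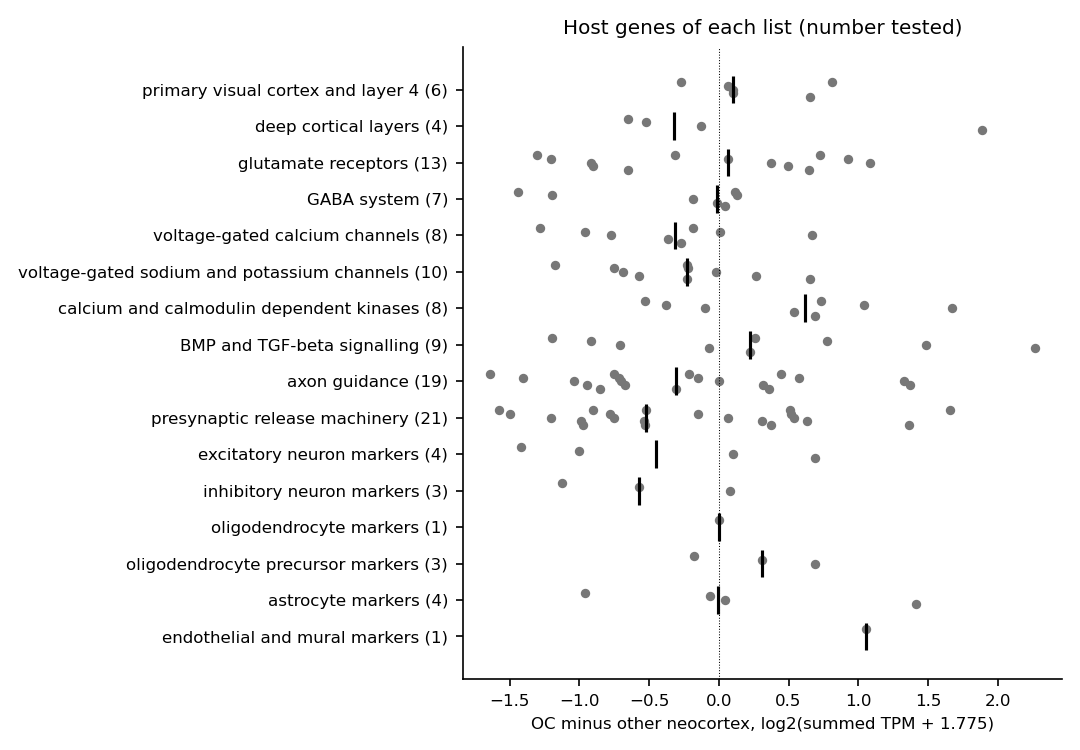
Log2 difference between OC and other neocortex in summed TPM (x axis) of each tested host gene, by gene list (rows, with the number of genes tested), and the median of the list as a bar. No host gene of the lists drawn had an adjusted p under 0.05.

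Markers of other cell types gave few circRNAs. No host gene of the 7 marker lists was called or had an unadjusted p under 0.05. Circular RNA of excitatory neuron markers, with 4 genes tested, summed to 182 to 367 TPM in OC and 150 to 556 TPM elsewhere, and of inhibitory neuron markers, with 3, to 22.8 to 75.1 and 30.8 to 158 TPM. ERBB4, an interneuron receptor, summed to 10.4 to 43.2 TPM against 15.7 to 115 TPM. Astrocyte markers (4 genes) summed to 31.1 to 66.4 TPM in OC and 4.08 to 152 TPM elsewhere, led by the bicarbonate transporter SLC4A4 with 25.6 to 40.2 and 0 to 75.5 TPM. Oligodendrocyte precursor markers (3 genes) summed to 6.48 to 11.4 and 0 to 36.0 TPM, with VCAN at up to 9.49 TPM in OC. MAG was the sole tested oligodendrocyte gene, at 0 in 3 OC libraries and 12.4 TPM in OC_10M, and PECAM1 the sole endothelial one, at 4.14 to 11.4 TPM. No microglial gene was tested. GAD1, PVALB and CLDN5, which define their cell types, had no circRNA in the table.

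OC was also compared with 1 region at a time. In a fit with 5 region means, 0 circRNAs were called against PFC, PCC and PC and 1 was lower against TC. Of the 9681 tested, 585, 542, 585 and 559 had an unadjusted limma p under 0.05 against PFC, PCC, PC and TC. With no difference anywhere, a share of about 0.05 of those tested would be expected. With the pool as a block the circRNA lower against TC was lost. No host gene was called against any of the 4.

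The effects of age and sex were compared between OC and the other areas. The difference between 20 and 10 years, and that between males and females, was tested for a change between OC and the other neocortex by an interaction term in limma. No circRNA and no host gene was called. Of the 9681 circRNAs tested, 222 had an unadjusted limma p under 0.05 for age and 189 for sex. Both counts lie below the share of about 0.05 of those tested that would be expected with no difference anywhere. OC gives 2 pools per age and 2 per sex, which limits this test to large changes.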

How the data were processed

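CircRNA-seq of rhesus macaque neocortex was analysed in 20 libraries, each RNA of 2 pooled animals. The authors trimmed reads with Cutadapt, aligned them with BWA and called circRNAs with CIRI2, keeping those with 2 or more junction reads. The genome build is not given in the sources used here. The deposited TPM values are not scaled by length and are, within a library, whole multiples of 0.306 to 5.15 TPM per read, from which back-splice reads were recovered.

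CircRNAs kept by the study's filter (17050 of 52828) and above 0 in at least 4 of the 20 libraries were tested (9681). limma 3.58.1 was run in R on log2(TPM + 1.775), the pseudocount being the median of the libraries' smallest values above 0, with Benjamini-Hochberg adjustment. Differences are OC minus other on that scale, which understates changes of low circRNAs. Host gene sums used the 8070 tested circRNAs with a single gene ID. Exact permutation tests on TPM were two-sided. Scripts were tested on simulated data. Intervals between libraries cover pools, not single animals.

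Same-numbered libraries share animals, which pairs them. Deviations of OC libraries correlated with those of their pool in other regions by 0.07 to 0.10, and a fit with the pool as a block was an alternative. Others varied pseudocount, filter, scale, variance model and libraries.

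Named circRNAs are those that passed with 1 direction in all 4 pools (at most 12 per direction), filled to 8 per direction by the smallest p, and the study's OC candidates. Named host genes are 8 per direction and the list members with the smallest p, up to 2 per pathway list and 1 per marker list. Members and lists were chosen with earlier results of these data known. Some genes and a gene list are not reported here.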

Additional observations from a re-analysis of the deposited data

Results flagged for a closer look

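Of 83 sets of 4 OC libraries examined (circRNAs, host genes and library summaries), 9 held a library far from the other ones by Dixon's test at 95%, and chance gives about 1 in 20. CircLYAR had 17.6 TPM in OC_10M and 9.17 to 10.06 TPM in the others. CircTMTC2 had 26.57 TPM in OC_20F and circRAPGEF5 56.66 TPM in OC_20M, and both were listed at 0 in the others. CircCACNA1A had 1496.62 TPM in OC_20F and 1061 to 1108 TPM in the others, and its host gene sum was 1614.31 TPM there and 1148 to 1202 TPM in the others. UBE2D4 summed to 6.64 TPM in OC_20F and 137 to 159 TPM in the others. GRIA1, an AMPA receptor subunit, summed to 12.41 TPM in OC_20M and 0 to 1.90 TPM in the others. MAG summed to 12.42 TPM in OC_10M and to 0 in the others, and PECAM1 to 4.14 TPM in OC_10F and 10.25 to 11.39 TPM in the others.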

How the results depend on the processing

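The number of circRNAs higher in OC, 5 in the report, was 17 with the study's filter alone, 11 with libraries brought to the same total or scaled by size factors, 9 at the same total with the replicate block, 2 with the replicate block alone, 2 without PCC, 2 at the same total without PFC_20F, PCC_20F and PC_10M, 1 without those 3 libraries, and 0 with a filter of 10 libraries, 5 region means, voom, or without PFC, TC or PC. It was 0 to 0 without any 1 pool or OC library, where circMSH3 and the chromosome 9 and 15 circRNAs are no longer tested, as none of the 5 is with the filter of 10 libraries, while the log2 difference stayed at 2.54 to 2.85 for circLYAR and 2.84 to 3.35 for circMCF2. The number lower, 1, was 6 with a mean-variance trend, 4 without PCC, 0 with a smaller pseudocount (0.1775 TPM), voom or without PFC, and 0 to 2 without 1 pool or OC library. Host genes higher, 2, were 12 by voom, 4 with the smaller pseudocount, 1 without the 3 libraries or without PFC, 0 with the filter of 10 libraries or without TC, and 0 to 3 without 1 pool or OC library. Host genes lower, 0, were 3 with the trend, 1 at equal depth, 1 without PCC and 0 to 1 without 1 pool or OC library.

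By the exact test, 88 higher became 188 at the same total, 204 with size factors, 13 with the filter of 10 libraries, 24 by Welch's unpaired statistic and 53 to 71 without 1 OC library. The 15 lower became 42 on log2 values and 3 to 9 without 1 OC library. With Welch's unpaired t-test in place of the exact test, 24 were higher and 283 lower. The circRNA lower against TC was lost with the block (0). With the trend, age acted differently in OC for 3 circRNAs and 1 host gene. The difference in back-splice reads went from -16104 to 52760 without the 3 libraries. Values of single genes that turned were STXBP5 (-0.80, filter of 10 libraries), PPFIA2 (0.17, voom) and host gene MAG (-0.75 to 0.33 without 1 pool or OC library, the lowest without OC_10M, -0.25 without PFC or TC, -0.0656 without PC). The cause of these changes was not tested.

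The settings that join the same total with the block or with the left-out libraries, and the exact test within pools, were chosen after seeing the data. Adjusted p stayed under 0.05 for circMSH3 in 11 of the 18 alternatives that tested it, circLYAR in 8 of 25, circMCF2 in 9 of 26, the chromosome 9 and 15 circRNAs in 8 of 18 each and that of chromosome 16 in 18 of 27. Count models, planned as alternatives, were not run, and voom was run on the recovered reads in their place. The replicate block changed no other count in the report by over 1.5 times. A circRNA with fewer than 2 reads is listed at 0, which limits what low levels show. Abundant circRNAs were also listed at 0 in some libraries, so a 0 need not mean a low level.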

Other observations

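The level at 20 minus that at 10 years was compared with its sign between OC and elsewhere, with a prior variance that followed the mean level. This signed difference was higher in OC for a circRNA of AP3B2, a neuronal adaptor of vesicle sorting (9.22 ± 1.65 on the log2 scale, limma adjusted p = 0.00011). The same held for a circRNA of YAF2 (4.46 ± 1.01, limma adjusted p = 0.037). For a circRNA of the kinase gene TLK2 the signed difference was lower in OC (-11.26 ± 1.82, limma adjusted p = 7.0e-06), which is not a smaller effect of age. None of the 3 passed in the fit of the report, and each rests on 2 OC pools per age. The part of libraries listed at 0 in these differences was not tested.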
